A study of Homo sapiens with 11 samples.

Results

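The let-7 family was examined member by member in 6 cell lines derived from solid tumours, together with the miRNAs that lie beside its genes. The members were chosen by name: hsa-let-7a-5p, hsa-let-7b-5p, hsa-let-7c-5p, hsa-let-7d-5p, hsa-let-7e-5p, hsa-let-7f-5p, hsa-let-7g-5p, hsa-let-7i-5p, hsa-let-7d-3p and hsa-miR-98-5p. These were 10 of 2588 mature miRNA names in the data, and reads were found for all 10 in every library. Rows of one name were summed and each library was expressed as CPM, that is counts per 1000000 reads assigned to any listed miRNA.

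Small RNA was sequenced from untreated parental cells grown in serum-containing medium: A549 (lung), ES2 (ovary), MV3 (melanoma), PANC1 (pancreas), BE(2)C (neuroblastoma) and HepG2 (liver). There were 2 libraries from biological replicates for every line but PANC1, which had 1, so that 11 libraries were available and no replicate error exists for PANC1. Cells were collected 48 h after seeding, except for BE(2)C. For that line the treatment protocol and the paper give 24 h, where its sample annotation gives 48 h. Libraries of A549, ES2, MV3 and PANC1 were made from 50 ng total RNA with a NEXTflex kit, whereas Novogene prepared those of BE(2)C and HepG2. Sequencer and read length changed along with the preparation. Any difference between the 4 NEXTflex lines and the other 2 can therefore not be told apart from the preparation, and statements on lines rest on tests within a preparation wherever possible.

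MiRNAs are short RNAs cut from a hairpin, which has a 5p and a 3p arm. The guide strand is loaded into Argonaute and pairs with mRNAs mainly through its seed, the bases near its 5′ end. Members of the let-7 family share their seed, accumulate with differentiation and repress growth-promoting mRNAs such as those of HMGA2, RAS genes, LIN28B and IGF2BP1. LIN28 proteins in turn bind the hairpin loop of let-7 precursors, preferentially at a GGAG element, and block their maturation.

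The mature sequences are shown because the members differ at only a few bases outside the seed, which determines what a count of a single member can mean. All 10 members had a RefSeq entry (build GRCh38.p14). The seed, bases 2 to 8, is in capitals.
let-7a-5p: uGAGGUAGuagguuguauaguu
let-7b-5p: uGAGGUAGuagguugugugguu
let-7c-5p: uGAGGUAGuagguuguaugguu
let-7d-5p: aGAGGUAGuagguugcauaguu
let-7e-5p: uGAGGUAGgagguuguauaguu
let-7f-5p: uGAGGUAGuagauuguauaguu
let-7g-5p: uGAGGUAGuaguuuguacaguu
let-7i-5p: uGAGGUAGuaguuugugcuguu
miR-98-5p: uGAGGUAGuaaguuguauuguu
let-7d-3p: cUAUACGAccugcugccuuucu

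The 9 members of the 5p side carried the seed GAGGUAG, and they are called the family in what follows. Let-7d-3p comes from the other arm of the let-7d hairpin and has another seed, UAUACGA. Counted from 1 at the 5′ end and read from let-7a-5p to the other member, let-7c-5p differed by A19G, let-7e-5p by U9G and let-7f-5p by G12A. Let-7b-5p differed by A17G and A19G, and let-7i-5p by 4 bases, G12U, A17G, U18C and A19U. Pairs that differ at 1 base only, such as let-7a-5p and let-7c-5p or let-7b-5p and let-7c-5p, can exchange reads through a single sequencing or alignment error. How the authors' counting treated reads that fit several members is not given in the sources used here. Among other miRNAs with this seed, hsa-miR-4458 had 7 reads over 3 libraries and hsa-miR-4500 had 0, so that the named members held practically all reads of the seed.

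The family is encoded by 12 hairpins on 8 chromosomes. On chromosome 9, MIRLET7A1 (chr9:94175957-94176036), MIRLET7F1 and MIRLET7D followed each other on the plus strand, separated by 310 and 2400 bases, in exons of the lncRNA gene MIRLET7A1HG. On chromosome 11, MIRLET7A2 (chr11:122146522-122146593, minus strand) lay in an intron of MIR100HG, 5635 bases from MIR100 and 46677 bases from MIR125B1. On chromosome 22, MIRLET7A3 (chr22:46112749-46112822, plus strand) and MIRLET7B (chr22:46113686-46113768) lay in an exon of MIRLET7BHG, with MIR4763 between them. On chromosome 21, MIRLET7C (chr21:16539828-16539911, plus strand) lay 658 bases after MIR99A within MIR99AHG. On chromosome 19, MIRLET7E (chr19:51692786-51692864, plus strand) lay 104 bases after MIR99B and 389 bases before MIR125A in an intron of SPACA6. On chromosome X, MIRLET7F2 (chrX:53557192-53557274, minus strand) and MIR98 lay 850 bases apart in an intron of HUWE1. MIRLET7G (chr3:52268278-52268361, minus strand, intron of WDR82) and MIRLET7I (chr12:62603686-62603769, plus strand, intron of MIRLET7IHG) stood alone. Hairpins are given in GRCh38 as annotated by RefSeq, with the same coordinates in GENCODE.

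**Figure D1:**
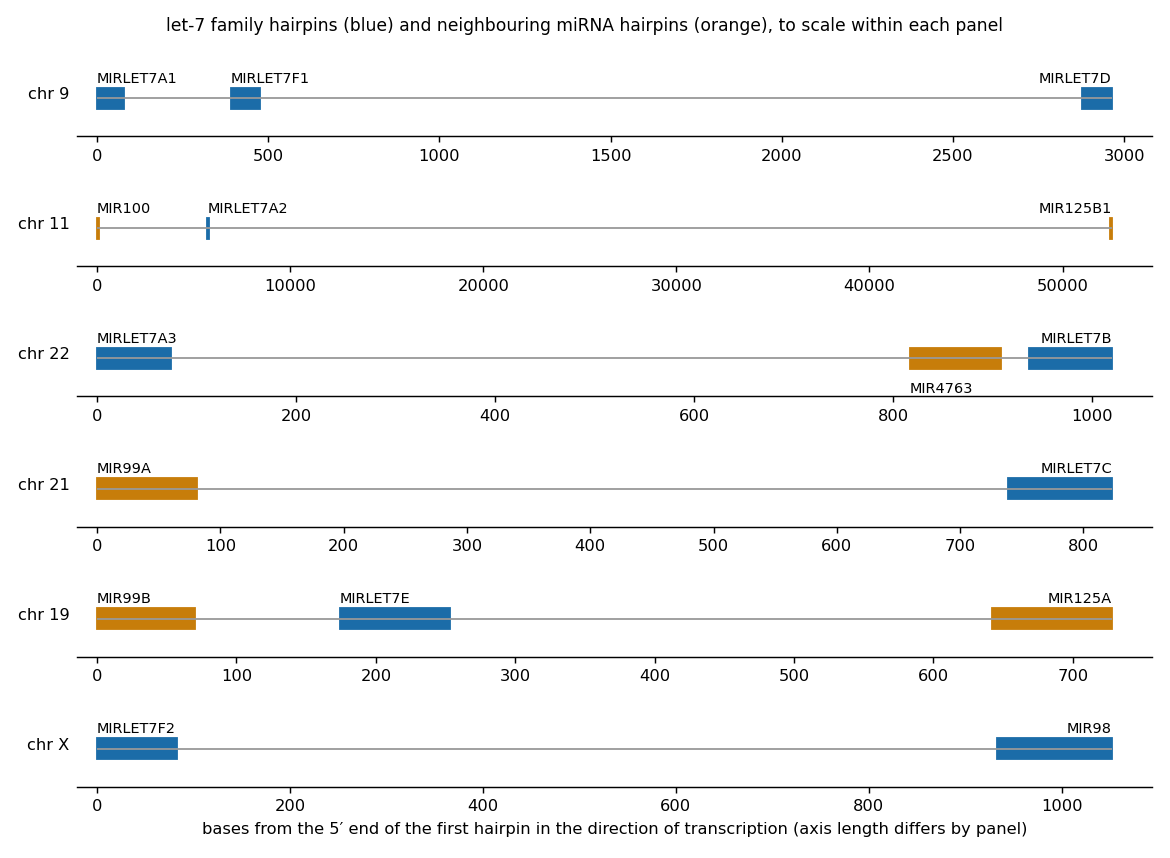
The 6 genomic clusters that hold more than 1 miRNA hairpin, drawn to scale within each panel as bases from the first hairpin in the direction of its strand. Blue boxes are hairpins of the let-7 family and orange boxes are other miRNA hairpins. On chromosome 19 the 3 hairpins lie within a short stretch, with gaps of 104 and 389 bases, whereas on chromosome 11 MIRLET7A2 and MIR125B1 are 46677 bases apart.

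Let-7a-5p is made by 3 of these hairpins and let-7f-5p by 2, so their reads cannot be placed at a cluster. Each of the 3 copies of let-7a-5p held between 31.0% and 35.5% of its reads in all libraries, and each copy of let-7f-5p between 48.4% and 51.6%, which is close to an even split. Together let-7a-5p and let-7f-5p made up 58.0% to 74.5% of the family in the NEXTflex libraries, 48.1% and 57.9% in BE(2)C and 46.7% and 50.8% in HepG2. The other 7 members of the family come from a single hairpin each, so their reads point to 1 place, apart from reads exchanged between close members. Such exchange was not tested. For let-7c-5p, 1 base from let-7a-5p, PANC1 had 4100 reads beside 1131139 of let-7a-5p, and 0 of let-7c-3p.

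The whole family set the scale for its members. It took 105582 and 121571 CPM in A549, 200495 and 211786 in ES2, 167063 and 180434 in MV3 and 212989 in PANC1. In BE(2)C the family took 18375 and 27232 CPM, and in HepG2 only 1527 and 1686. By CPM, all 7 NEXTflex libraries thus stood above both BE(2)C libraries, and these above both HepG2 libraries, in a comparison that spans the preparations. The size of these gaps depends on the scaling. TMM factors, by which CPM is divided, were 1.45 and 1.61 in BE(2)C but 0.166 and 0.217 in HepG2. They bring both lines much closer to each other. The reads assigned per library ranged from 1173902 (MV3 replicate 1) to 12137452 (HepG2 replicate 2) and the family had 18142 and 20460 reads in the HepG2 libraries.

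Members differed widely in how far their levels ran from line to line. By CPM, let-7b-5p showed the widest span, 2717-fold between the line means of PANC1 (15550 CPM) and HepG2 (5.72 CPM). MiR-98-5p spanned 1282-fold, again between PANC1 (5595 CPM) and HepG2 (4.37 CPM). The narrowest spans by CPM were those of let-7g-5p with 41.8-fold and let-7e-5p with 67.0-fold. With TMM factors the spans were smaller, 278-fold for let-7b-5p, 146-fold for miR-98-5p and 14.1-fold for let-7e-5p, and the narrowest were let-7g-5p with 9.80-fold and let-7f-5p with 12.2-fold. HepG2 had the lowest mean of every member by CPM, whereas with TMM factors BE(2)C was lowest for miR-98-5p, let-7g-5p, let-7f-5p, let-7e-5p and let-7d-3p. When lines were ordered by their mean, the libraries of neighbouring lines overlapped at 8 of 50 steps with TMM factors and at 4 of 50 by CPM: let-7b-5p in ES2 and A549, let-7d-5p in PANC1 and MV3, and let-7f-5p and let-7i-5p in A549 and MV3. The levels differed between the 6 lines for 10 of 10 members (limma F test on log2(CPM + 1), adjusted p under the threshold of 0.05), which is no more than the background, since 99.3% of the 546 tested miRNAs did. Within the 4 NEXTflex lines 10 of 10 passed as well, against 85.4% of 453 tested miRNAs.

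**Figure D2:**
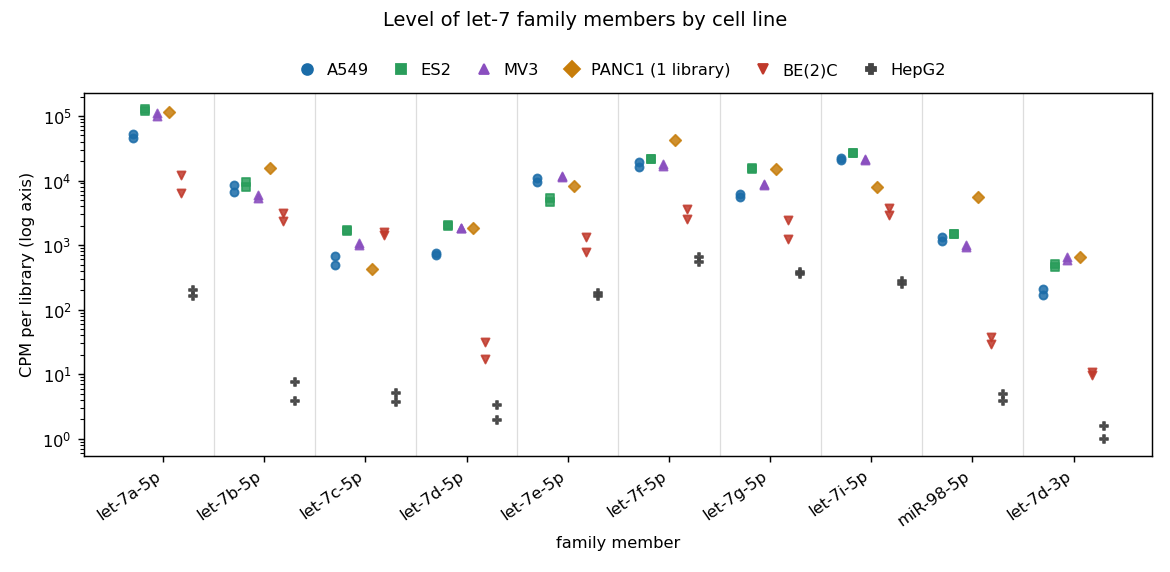
CPM of each family member in every library, on a log axis; each point is a library and each colour a line, with 1 library for PANC1 and 2 for the others. HepG2 is lowest for all members by CPM (with TMM factors BE(2)C is lowest for 5 of them), BE(2)C lies among the NEXTflex lines only for let-7c-5p, and PANC1 is highest for let-7b-5p, let-7f-5p, miR-98-5p and let-7d-3p.

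Because levels depend on how libraries are scaled, the composition of the family was examined as the share of each member in the reads of the 9 members of the same library, a quantity that no scaling factor alters. Shares differed between the 6 lines for 9 of 10 members when their F statistic across lines was set against every possible assignment of libraries to lines (exact permutation test, p under 0.05, not adjusted for the 10 members). The smallest p this design allows, 0.0001, was reached by let-7d-5p, let-7f-5p and miR-98-5p in this exact test. Let-7i-5p did not pass (exact permutation p = 0.0790). Within the 4 NEXTflex lines all 10 shares passed, 8 of them at the smallest p that these 7 libraries allow (exact permutation p = 0.00952) and let-7b-5p and let-7d-3p at an exact p of 0.0190. A limma fit of shares across all miRNAs, expressed as log2 of reads per 1000000 family reads with 50 added, called 10 of 10 members over the 6 lines against a background of 97.1%, and 10 of 10 over the NEXTflex lines against 85.4%.

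Let-7a-5p, the founding member of the family in humans, was its most abundant member in 9 of 11 libraries, that is in 5 of the 6 lines. It held 59.6% and 60.3% of the family in ES2, 60.4% and 60.9% in MV3, and 54.5% in PANC1 (95% Wilson interval 54.4% to 54.6%, counting error only). In A549 it held 42.6% and 42.5%, in BE(2)C 34.4% and 44.8% and in HepG2 10.6% and 12.0%. ES2, MV3 and PANC1 were therefore richest in let-7a-5p, the A549 and BE(2)C libraries overlapped, and HepG2 was far below all others.

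Let-7f-5p, which differs from let-7a-5p at a single base, took the lead in both HepG2 libraries with 36.1% and 38.9% of the family. In the other lines it held 15.5% and 15.9% (A549), 10.6% and 10.3% (ES2), 10.0% and 10.1% (MV3), 20.02% (PANC1) and 13.8% and 13.1% (BE(2)C). Let-7g-5p, from its own locus in WDR82, was also largest there, with 23.5% and 22.7% against 4.95% to 7.65% in the NEXTflex libraries and 6.82% and 9.06% in BE(2)C. Let-7e-5p was likewise highest in HepG2 in relative terms, with 10.7% and 10.8%. Thus the HepG2 family was composed mainly of let-7f-5p, let-7g-5p, let-7i-5p, let-7a-5p and let-7e-5p, while let-7b-5p (0.496% and 0.230%, from 90 and 47 reads) and let-7c-5p (0.243% and 0.298%, from 44 and 61 reads) were among the 4 smallest parts, with let-7d-5p and miR-98-5p.

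In BE(2)C these 2 members were large parts instead. Let-7c-5p held 7.86% and 5.85% of its family, against 0.197% to 0.837% in the NEXTflex libraries. Let-7b-5p held 12.6% and 11.4%, against 3.15% to 7.30%. Conversely, let-7d-5p (0.0948% and 0.116%) and miR-98-5p (0.160% and 0.136%) were smaller parts of the family than in any NEXTflex library, where they held 0.631% to 1.10% and 0.554% to 2.63%. BE(2)C and HepG2 share a preparation and can be compared with each other in that respect. Their time of collection differed, however, since the treatment protocol and the paper give 24 h for BE(2)C and 48 h for HepG2. Differences between these lines can therefore not be told apart from that time. Of the 10 members, 7 differed in family share between them (limma, adjusted p under 0.05), 3 higher in BE(2)C and 4 higher in HepG2. Relative to the family reads, 72.2% of all 546 tested miRNAs differed, 37.2% higher in BE(2)C and 35% higher in HepG2. Let-7b-5p was higher in BE(2)C by 5.13 on the log2 scale (SE 0.32, limma adjusted p = 1.7e-06), let-7c-5p by 4.63 (SE 0.20) and let-7a-5p by 1.80 (SE 0.15). Let-7g-5p, let-7f-5p, let-7e-5p and miR-98-5p were higher in HepG2, with log2 differences of BE(2)C minus HepG2 of -1.55, -1.48, -1.24 and -0.85. For the last 4 the direction of the level depended on the scaling. By CPM they were lower in HepG2. With TMM factors their levels were higher there, with log2 differences of -0.76, -0.69, -0.45 and -0.073 in the same order. Of these, let-7g-5p and let-7f-5p were called (limma, adjusted p under 0.05).

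**Figure D3:**
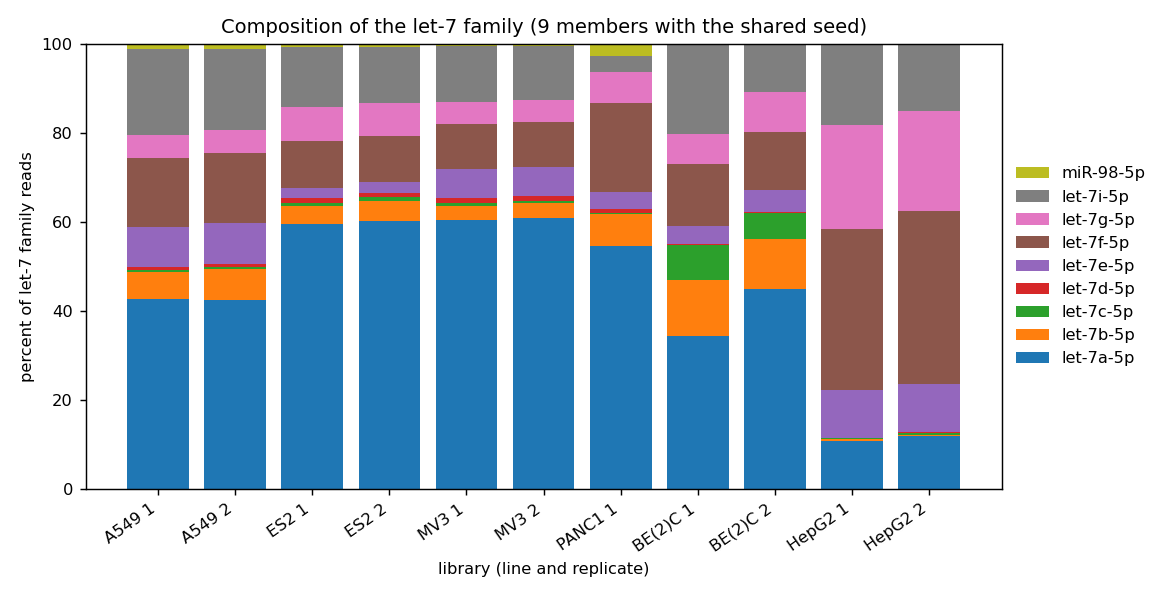
Stacked bars of the share of each of the 9 seed-sharing members in the family reads of a library, in percent, for the 11 libraries. Let-7a-5p fills the largest part of each bar except in HepG2, where let-7f-5p with 36.1% and 38.9% and let-7g-5p do.

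Among the NEXTflex lines, the family of PANC1 had its own pattern. MiR-98-5p held 2.63% (95% Wilson interval 2.61% to 2.65%), against 0.554% to 1.10% in the other 6 NEXTflex libraries, and let-7f-5p, whose reads come from chromosomes 9 and X and cannot be placed, held 20.02%. Let-7i-5p, from chromosome 12, held only 3.67%, against 12.0% to 19.4% in the 6 others, and let-7c-5p was lowest of all lines with 0.197%. As PANC1 was sequenced once, the spread of these shares is unknown.

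A549 and ES2 differed in the family share of 6 members, 3 in each direction (limma, adjusted p under 0.05), with 39% of all tested miRNAs called, 27.5% higher in A549 and 11.5% higher in ES2. The largest was let-7e-5p, which held 8.93% and 9.08% in A549 but 2.35% and 2.54% in ES2 (log2 difference 1.88, SE 0.13, limma adjusted p = 2.3e-05). Let-7f-5p and miR-98-5p were higher in A549 by 0.58 and 0.60 on the log2 scale, and let-7a-5p, let-7c-5p and let-7g-5p lower, with log2 differences of -0.49, -0.69 and -0.55. A549 and MV3 differed in 7 members, 4 higher and 3 lower in A549 (41.6% of all tested, 22% higher in A549 and 19.6% higher in MV3). Here miR-98-5p (log2 difference 0.96, SE 0.17) and let-7f-5p (0.64, SE 0.12) were again higher in A549, as were let-7b-5p and let-7e-5p, whereas let-7a-5p, let-7d-5p and let-7d-3p were lower. Only 2 members distinguished ES2 from MV3 (26% of all tested, 6.23% higher in ES2 and 19.8% higher in MV3): let-7e-5p, lower in ES2 by a log2 difference of -1.45 (SE 0.13, limma adjusted p = 0.00024), and let-7g-5p, higher by 0.58 (SE 0.16). Let-7e-5p thus differed in share in all 3 comparisons. The counts rested on single libraries: without any one library of A549 or ES2 the first fell from 6 to 2, without either of MV3 to 3, and the second fell from 7 to 2 without any one library of these 3 lines. The third was 1 without any one of these 6 libraries and 4 without either BE(2)C library, which enters through the shared estimate of the spread.

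By level, 6 members differed between A549 and ES2, 1 higher in A549 and 5 lower (limma on log2(CPM + 1); 50.5% of all tested miRNAs, 23.6% higher in A549 and 26.9% higher in ES2). Let-7e-5p was the higher one, with 9425 and 11039 CPM in A549 against 4704 and 5379 in ES2 (log2 difference 1.02, SE 0.25, limma adjusted p = 0.0109). Let-7c-5p showed the largest difference in the other direction, with 499 and 675 CPM against 1678 and 1738 (log2 difference -1.56, SE 0.20). The median difference was -0.84 over the members and -0.17 over all tested miRNAs. With TMM factors the split was again 1 higher and 5 lower (47.3% of all tested called). With quantile normalization it was 3 higher and 4 lower (51.5% of all tested called). The median of the members then turned to 0.11, against -0.24 over all miRNAs. Levels in A549 and MV3 depended on the scaling. By CPM 4 members were lower in A549 and 0 higher (57.3% of all tested, 20% higher in A549 and 37.4% higher in MV3). With TMM factors 4 were higher and 0 lower (48% of all tested called). With quantile normalization 5 were higher and 1 lower (53.1% of all tested called). The median over all miRNAs was -0.47 by CPM and 0 with TMM factors. Without A549 replicate 1 the count by CPM was 2. Between ES2 and MV3, 3 members were called, 2 higher in ES2 and 1 lower (32.8% of all tested, 8.97% higher in ES2 and 23.8% higher in MV3), namely let-7c-5p, miR-98-5p and, in the other direction, let-7e-5p. With TMM factors 5 were higher and 1 lower (27.1% of all tested called), and with quantile normalization 3 and 1 (26.6%). The count of 3 became 0 without ES2 replicate 1 or MV3 replicate 2, 1 without the other library of either line, and 5 without either BE(2)C library.

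Between BE(2)C and HepG2 all 10 members were higher in BE(2)C by CPM (83% of all tested miRNAs differed, 74.7% being higher in BE(2)C and 8.24% in HepG2). The median difference of the members, 2.73 on the log2 scale, was close to that of all miRNAs, 2.79. Relative to the latter, let-7b-5p was higher in BE(2)C by 5.91, let-7c-5p by 5.36, let-7a-5p by 2.80 and let-7i-5p by 0.84 on the log2 scale, and the other 6 members were lower. The direction depended on the scaling. With TMM factors 4 members were higher and 2 lower in BE(2)C (64.3% of all tested called). With quantile normalization 3 were higher and 6 lower (70.7% of all tested called), with a median of -1.21 over the members and -0.71 over all miRNAs. Let-7b-5p had 2321 and 3110 CPM in BE(2)C and 7.58 and 3.87 in HepG2, and let-7c-5p 1444 and 1593 against 3.70 and 5.03, whereas let-7g-5p had 1253 and 2466 against 358 and 382.

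Whether a member moved with the miRNAs beside it was examined as the ratio of reads within a library, which again no scaling factor alters. For 9 pairs of the same cluster the log2 ratio of CPM, with 1 added to each, was compared between lines by the exact permutation test. All 9 passed over the 6 lines and 1 of 9 within the NEXTflex lines. Pairs from different clusters were not tested, so these counts have no background and do not set neighbours apart. By level, 99.3% of all tested miRNAs differed over the 6 lines. In 4 of the 9 pairs, those with let-7a-2-3p, miR-125b-2-3p or let-7f-1-3p, an arm had at most 2 reads in both HepG2 libraries, so that the ratio there followed the other miRNA and the 1 CPM added. For these 4 the test over the 6 lines is not read as a difference in ratio. The p-values below are not adjusted for the 9 pairs.

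The chromosome 19 cluster joins let-7e with miR-99b and miR-125a, of the miR-99/100 and miR-125 families, which have seeds of their own. In the NEXTflex libraries let-7e-5p had 1.90 and 2.50 reads per read of miR-99b-5p in A549, 2.21 and 2.58 in ES2, 1.61 and 1.65 in MV3 and 3.05 in PANC1. Per read of miR-125a-5p it had 1.11 and 1.37, 1.23 and 1.44, 1.25 and 1.34, and 2.31. The 3 miRNAs of this cluster were all lower in ES2 than in A549, miR-99b-5p with 2131 and 2086 against 4961 and 4419 CPM (log2 difference of A549 minus ES2 1.15, SE 0.14) and miR-125a-5p with 3810 and 3734 against 8477 and 8084 CPM (1.13, SE 0.31), beside 1.02 for let-7e-5p. Neither ratio passed the test within the NEXTflex lines (exact permutation p = 0.0952 for miR-99b-5p and 0.124 for miR-125a-5p).

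In the other 2 lines the ratio of let-7e-5p to miR-99b-5p was of another order, 0.0886 and 0.181 in BE(2)C and 0.0899 and 0.0931 in HepG2, so that the 6 lines differed (exact permutation p = 0.00452). By CPM, miR-99b-5p itself ranged less widely over the line means than let-7e-5p, 4.27-fold against 67.0-fold, with 2086 to 7249 CPM in the NEXTflex libraries, 8719 and 7386 in BE(2)C and 1817 and 1953 in HepG2. With TMM factors HepG2 was its highest line instead of its lowest. Let-7e-5p had 773 and 1340 CPM in BE(2)C and 163 and 182 in HepG2. MiR-125a-5p kept to let-7e-5p in BE(2)C, with a ratio of 1.33 and 1.13, but in HepG2 it was lower still, with 37.8 and 49.5 CPM and a ratio of 4.32 and 3.67 (exact permutation p over the 6 lines = 0.00827). In HepG2 the 3 hairpins of this short cluster thus spanned from 1953 CPM of miR-99b-5p to 37.8 CPM of miR-125a-5p.

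On chromosome 21 let-7c-5p exceeded miR-99a-5p in all NEXTflex libraries, with ratios of 3.07 and 3.96 in A549, 2.10 and 2.28 in ES2, 1.90 and 2.35 in MV3 and 10.3 in PANC1. This was the pair that differed within the NEXTflex lines (exact permutation p = 0.0286), PANC1 lying above the other 6 libraries. PANC1 had 1 library and adds no spread within lines to this test, so its ratio has no replicate to check it. In BE(2)C the order was inverted: miR-99a-5p reached 51964 and 54466 CPM, against 40.9 to 799 in the NEXTflex libraries, whereas let-7c-5p stayed at 1444 and 1593, giving ratios of 0.0278 and 0.0292. HepG2 had a ratio of 0.484 and 0.517, from 44 and 61 reads of let-7c-5p (exact permutation p over the 6 lines = 0.000289). MiR-125b-2-3p, the arm that identifies the miR-125b copy of this chromosome, was also highest in BE(2)C with 336 and 293 CPM, and let-7c-5p had 4.30 and 5.44 reads per read of it there, against 10.4 to 85.4 in the NEXTflex libraries. Both chromosome 21 neighbours thus had their highest levels in BE(2)C. Let-7c-5p had its highest share of the family there but not its highest level, with a mean of 1518 CPM against 1708 in ES2.

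The chromosome 11 copy of let-7a can be told from the others by its 3p arm, let-7a-2-3p. It had 0 to 71 reads per library, with 40.9 and 30.9 CPM in ES2, 21.3 and 12.3 in MV3, 7.08 in PANC1, 0 and 2.91 in A549, and at most 1 read in any BE(2)C or HepG2 library. MiR-100-5p, encoded next to it, was highest in the same line, with 111540 and 110750 CPM in ES2, 75284 and 64566 in MV3, 34818 in PANC1 and 9070 and 8668 in A549. Their ratio did not differ detectably within the NEXTflex lines (exact permutation p = 0.943), nor did that of let-7a-2-3p to miR-125b-1-3p (exact permutation p = 0.562). With 0 and 6 reads of let-7a-2-3p in A549, both ratios there depend on the 1 CPM added. These tests therefore cannot decide whether the ratios differ. MiR-125b-1-3p, however, was highest in MV3, with a mean of 735 CPM against 517 in ES2. In BE(2)C it had 3343 and 2763 reads, where let-7a-2-3p had 0 and 1. The counts of 0 allow up to 3 reads, that is 1.12 CPM in A549 replicate 1, 0.399 in BE(2)C replicate 1 and 0.253 and 0.247 in HepG2.

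On chromosome 22, let-7b-5p was set against let-7a-3p, which is made by MIRLET7A3 of this cluster and by MIRLET7A1 on chromosome 9. It had 49.0 and 80.2 reads per read of let-7a-3p in A549, 49.9 and 71.4 in ES2, 16.3 and 19.8 in MV3, 40.6 in PANC1, 6.80 and 6.37 in BE(2)C, and 0.307 and 0.170 in HepG2. Over the 6 lines this ratio differed (exact permutation p = 0.000962), within the NEXTflex lines it did not pass (exact permutation p = 0.0952). Let-7a-3p reads were divided nearly evenly between the chromosome 22 and chromosome 9 rows in 9 libraries, with 46.7% to 56.9% on chromosome 22. In BE(2)C, however, the chromosome 22 row held 82.6% (95% Wilson interval 81.1% to 84.0%) and 76.2% (74.7% to 77.7%), of 2567 and 3195 reads. How reads of this name were assigned to the 2 rows is not given in the sources used here. BE(2)C was also the line in which let-7b-5p of the same cluster had its highest share of the family. By level, however, let-7b-5p was lower there, with a mean of 2716 CPM, than in every NEXTflex line, the lowest of which was MV3 with 5585. MiR-4763, between both hairpins, had at most 77 reads of its 3p arm and 4 of its 5p arm in a library.

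For chromosome X, miR-98-5p was compared with let-7f-2-3p, the 3p arm of the hairpin beside it. It had 180 to 451 reads per read of let-7f-2-3p in the 6 NEXTflex libraries where the latter was seen, and MV3 replicate 1 had 0 reads of it. In BE(2)C the ratio was 5.02 and 4.12 and in HepG2 4.50 and 3.75, from 10 to 59 reads of let-7f-2-3p. The ratio differed over the 6 lines (exact permutation p = 0.0124) and not detectably within the NEXTflex lines (exact permutation p = 0.476). Outside PANC1, NEXTflex libraries had at most 15 reads of let-7f-2-3p, too few for the latter test to decide. On chromosome 9, let-7f-1-3p had at most 65 reads in a library, and at most 25 outside PANC1. The ratio of let-7d-5p to it did not pass within the NEXTflex lines (exact permutation p = 0.257), which such counts cannot decide.

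**Figure D4:**
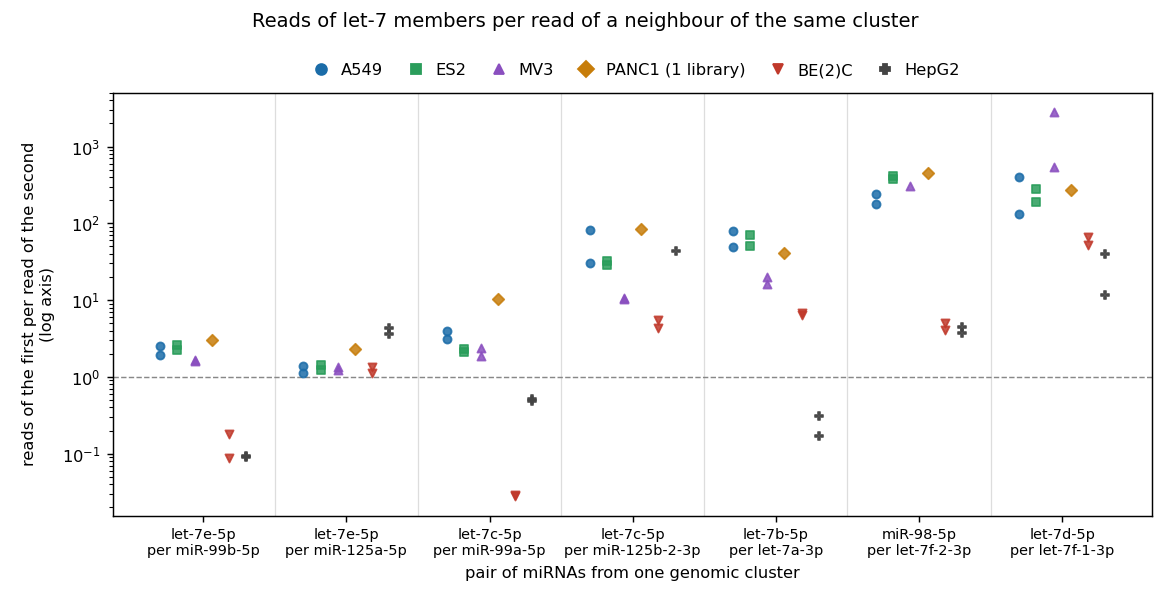
Reads of a let-7 member per read of a miRNA from the same cluster, by library, on a log axis; the dashed line marks equal reads, and 2 library values with 0 reads of the second miRNA are not drawn. BE(2)C and HepG2 lie below all NEXTflex libraries for let-7e-5p per miR-99b-5p, let-7c-5p per miR-99a-5p, let-7b-5p per let-7a-3p and miR-98-5p per let-7f-2-3p, but not for let-7e-5p per miR-125a-5p.

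The 2 arms of a hairpin are cut together, and the arm that is kept is usually the 5p arm in this family. For let-7d the 5p arm also had more reads in every library, but its 3p arm was a larger part than in the other hairpins. This arm had 18.0% to 26.2% of the reads of the hairpin in the NEXTflex libraries, 37.9% and 23.6% in BE(2)C and 45.2% and 23.1% in HepG2, where these rest on 19 and 12 reads of let-7d-3p. Let-7d-3p followed let-7d-5p over the lines. Its levels were 205 and 168 CPM in A549, 459 and 517 in ES2, 647 and 579 in MV3, 650 in PANC1, 10.6 and 9.79 in BE(2)C and 1.60 and 0.989 in HepG2. The ratio of both arms of let-7d did not pass the test over the 6 lines (limma, adjusted p = 0.149), although 83.1% of 160 hairpins with both arms did.

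The 3p arm of the other hairpins was rarer in most libraries. For let-7a, where 5p reads come from 3 hairpins and the 3p name from 2 of them, the 3p arm had 0.103% to 0.329% in the NEXTflex libraries, 5.13% and 3.85% in BE(2)C and 13.2% and 10.1% in HepG2. Its 3p level moved far less than its 5p level: let-7a-3p had 104.8 to 383 CPM in the NEXTflex libraries, 341 and 489 in BE(2)C and 24.7 and 22.7 in HepG2, while let-7a-5p had 44945 to 127669, then 6315 and 12209, and finally 163 and 202. For let-7e the 3p arm had 0.0536% to 0.387%, 0.938% and 1.26% in BE(2)C and 0.614% and 0.675% in HepG2. Let-7i went the other way, with 0.0984% to 0.229% in the NEXTflex libraries and 0.0266% to 0.0333% in the others, where at most 9 reads of let-7i-3p were seen. Let-7b had 0.313% to 1.15% in the NEXTflex libraries and 0.547% and 0.465% in BE(2)C. MiR-98-3p had 0.662% to 1.87% of the reads of its hairpin in the NEXTflex libraries, while its 9 reads in HepG2 replicate 2 made 13.0% and HepG2 replicate 1 had 0. Let-7g-3p had at most 8 reads in any library.

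Over the 6 lines the arm ratio differed for 5 of 6 single-copy hairpins tested, let-7b, let-7c, let-7e, let-7i and miR-98 (limma on the log2 ratio; 83.1% of 160 hairpins). In HepG2 the 3p arms of let-7b, let-7c, let-7i and miR-98 had 0 to 9 reads, so that their ratio there depends on the 1 CPM added. Within the NEXTflex lines limma called 0 of 6 (13.4% of 127 hairpins), with 2 at an unadjusted p under 0.05 and a lowest adjusted p of 0.0736, and again 0 when 0.5 CPM was added instead.

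**Figure D5:**
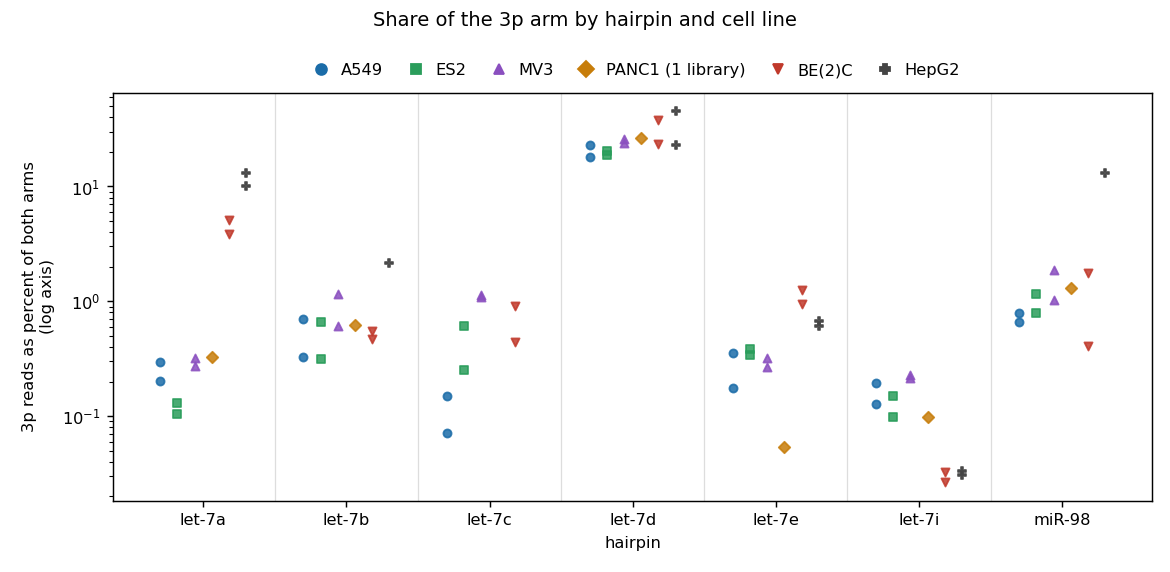
Reads of the 3p arm as percent of the reads of both arms, by hairpin and library, on a log axis; 5 library values with 0 reads of the 3p arm are not drawn. Let-7d lies near 18.0% to 45.2% in every library, and in let-7a and let-7e both BE(2)C and HepG2 lie above all NEXTflex libraries.

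Since LIN28 proteins recognise GGAG in the loop, the loops of the hairpins were compared for these 4 letters, on the strand of the miRNA only, between the end of the 5p and the start of the 3p sequence. It was found in 8 of 11 family hairpins with both arms in RefSeq, and in 8.12% of all 739 human hairpins with both arms. The last 15 bases of the loop are shown for a hairpin of each cluster, and for the 3 without the element, because they show how the sites differ. GGAG is in capitals.
MIRLET7A1 (chromosome 9): accacugGGAGauaa
MIRLET7A2 (chromosome 11): caucaagGGAGauaa
MIRLET7C (chromosome 21): cacccugGGAGuuaa
MIRLET7E (chromosome 19): cacccaaGGAGauca
MIRLET7G (chromosome 3): cgguacaGGAGauaa
MIRLET7I (chromosome 12): ccgcuguGGAGauaa
MIRLET7A3 (chromosome 22): ccugcuaugggauaa
MIRLET7B (chromosome 22): ccccucggaagauaa
MIR98 (chromosome X): ccaauuagaagauaa

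The 3 hairpins without GGAG were MIRLET7A3 and MIRLET7B, which share the chromosome 22 cluster, and MIR98. The products of MIRLET7B and MIR98 moved differently: let-7b-5p had a higher share of the family in BE(2)C than in any NEXTflex library and a lower one in HepG2, while miR-98-5p had a lower share in both. Such shares were not particular to these hairpins. Among members whose loop holds GGAG, let-7c-5p also had a higher share in BE(2)C than in any NEXTflex library. Let-7d-5p, another of these, had a lower share in both BE(2)C and HepG2. A match describes the letters only, and LIN28 levels were not analysed here.

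The miRNAs whose profile was most like that of a member were sought among 536 other miRNAs, by the Pearson correlation of log2(CPM + 1) over the means of the 6 lines, which share libraries, depth and preparation. For let-7e-5p these were miR-23a-3p (r = 0.984), its cluster neighbour miR-125a-5p (r = 0.984) and miR-22-3p (r = 0.974), whereas miR-99b-5p had an r of 0.315 by CPM and -0.53 with TMM factors. For let-7c-5p they were miR-4521 (r = 0.989), miR-106b-5p (r = 0.989) and miR-2355-3p (r = 0.982), and its chromosome 21 neighbours miR-125b-2-3p and miR-99a-5p had an r of 0.855 and 0.724 (0.866 and 0.610 with TMM factors). Let-7a-5p was most like miR-423-3p (r = 0.998), let-7b-5p like miR-652-3p (r = 0.988), let-7d-5p and let-7d-3p like miR-151a-5p (r = 0.993 and 0.997), let-7f-5p and miR-98-5p like miR-423-5p (r = 0.988 and 0.996), let-7g-5p like miR-30e-5p (r = 0.988) and let-7i-5p like miR-29c-3p (r = 0.988). Within the family the closest profiles were those of let-7d-5p and let-7d-3p, from one hairpin (r = 0.997), and of let-7f-5p and miR-98-5p (r = 0.994). The least alike by CPM were let-7c-5p and miR-98-5p (r = 0.646, and 0.376 with TMM factors). With TMM factors let-7c-5p and let-7f-5p were the least alike (r = 0.264).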

How the data were processed

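Small RNA libraries of 6 tumour cell lines were analysed, 2 per line and 1 for PANC1. The submitters' processing notes name cutadapt 1.14, Bowtie2 2.3.2, SAMtools 1.5, featureCounts 1.5.3, edgeR 3.30.3 and build hg38, without order. Handling of reads that match several members is not given in the sources used here. The authors deposited 1 table per line with 2813 rows for 2588 mature names. The PANC1 values were deposited as CPM. The other 5 tables hold a signal that the authors had scaled within each table. All nonzero values (100% per library, tolerance 0.01 reads) were whole multiples of 1 read, so reads were recovered and CPM recomputed for each library. The design had assumed CPM throughout. Assigned reads ranged from 1173902 to 12137452. Intervals (95% Wilson) and the limit of 3 reads at a count of 0 cover counting error only.

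MiRNAs that reached 10 CPM on average in 1 line or more were fitted with limma 3.58.1 in R 4.3.3 on log2(CPM + 1), on log2 reads per 1000000 family reads with 50 added, and on log2 ratios of both arms, with line as factor, eBayes with trend, two-sided contrasts and Benjamini-Hochberg adjustment at 0.05. A pseudocount understates changes of weakly detected miRNAs. Exact permutation tests of the one-way F statistic, which has no direction, were used for 10 shares and 9 neighbour ratios. Alternatives were TMM (edgeR 4.0.16), quantile normalization, other pseudocounts and filters, edgeR, DESeq2 1.42.0, a replicate block and leaving out each library. The fits were tested on simulated data. The named miRNAs were the members, the other arms of their hairpins, their cluster neighbours, miRNAs with the same seed and the 3 with the most similar profile. Members, lists and neighbours were chosen with earlier results of these data known. RefSeq sequences were matched by name for 32 of 33 listed miRNAs. Tests measure the spread between libraries of a line only.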

Additional observations from a re-analysis of the deposited data

How the results depend on the processing

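The counts of members, shares and arm ratios called over the 6 lines or over the NEXTflex lines by limma stayed within 1.5 times under every alternative run, and so did the number of shares past the exact test. Of the 9 neighbour ratios, all of which passed over the 6 lines, 1 also passed when the test was limited to the NEXTflex libraries. Of the 30 miRNAs most like a member, 8 were the same with TMM factors.

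Counts for pairs of lines moved more. For levels of ES2 and MV3 (3 called) TMM factors gave 6, DESeq2 9, edgeR 1 and no filter 1. For BE(2)C and HepG2 (10 called) TMM factors and DESeq2 each gave 6. With TMM factors 27.1% of all tested miRNAs were called for ES2 and MV3, and 64.3% for BE(2)C and HepG2. The share over all miRNAs was not taken for DESeq2, edgeR, the fit without a filter or fits with a library left out. Those counts therefore have no background. Leaving out 1 library at a time gave 2 to 5 for levels of A549 and MV3 and 0 to 5 for ES2 and MV3. For family shares it gave 2 to 7 for A549 and ES2, 2 to 7 for A549 and MV3 and 1 to 4 for ES2 and MV3. A line left with 1 library was assumed to vary like the others. The cause of these shifts was not tested.

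Levels of BE(2)C minus HepG2 changed sign with the scaling. With TMM factors the log2 difference was -0.45 for let-7e-5p, -0.69 for let-7f-5p, -0.76 for let-7g-5p, -0.073 for miR-98-5p and -0.0014 for let-7d-3p. With DESeq2 these were -0.59, -0.84, -0.89, -0.24 and -0.17, and let-7c-5p in A549 minus MV3 was 0.25. With quantile normalization the difference was -1.44 for let-7d-5p, -1.26 for let-7e-5p, -1.15 for let-7f-5p, -1.51 for let-7g-5p, -1.44 for miR-98-5p and -1.94 for let-7d-3p. Family shares and ratios within a library do not use these factors.

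Replicate numbers did not pair the libraries, since deviations of same-numbered libraries correlated by only -0.05 to 0.11 over 546 miRNAs. With a replicate block 4 members were called for levels of ES2 and MV3 and 8 shares for BE(2)C and HepG2, and the other counts were as without it. Depth limits the 3p arms, let-7a-2-3p and the HepG2 counts of let-7b-5p and let-7c-5p, which rest on few reads.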
